A study of Mus musculus with 42 samples.

Results

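The genes described here are 10 members of the circadian clock, measured by RNA-seq in 7 tissues of wild-type and Tug1 knockout mice. They were taken by symbol from a table of 26653 genes: the activators Arntl, Npas2 and Clock, and the output and repressor genes Dbp, Tef, Nr1d1, Nr1d2, Per1, Per2 and Per3. The labels describe 42 samples, 22 wild-type and 20 knockout, all male. The knockout animals carried the Tug1_tm1.1Vlcg allele, in which a lacZ cassette stands in place of the gene body of the long noncoding RNA Tug1 on both alleles, on a C57BL/6J background and without the neomycin resistance gene. Wild-type animals carried both normal alleles. There were 4 wild-type and 3 knockout testes, 3 and 2 prostates, and 3 of each genotype for liver, heart, spleen and eyes. MEFs, fibroblasts grown as primary cultures from E14.5 littermate embryos, also had 3 of each. Apart from the MEFs the tissues were adult. The exact age of the animals and the time of day of collection are not given in the sources used here.

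The circadian clock is a feedback loop of transcription. ARNTL (BMAL1) pairs with CLOCK or its relative NPAS2, binds E-box elements and switches on the Per and Cry genes, whose proteins then repress the pair, and the same pair drives Nr1d1 and Nr1d2, which repress Arntl. Because Arntl peaks when Dbp and Nr1d1 are low, the levels of these genes in a tissue depend on when it was collected.

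The table gives 1 value per gene, genotype and tissue, combined by the authors over the samples of a group, as FPKM (fragments scaled to transcript length and library size). No value per sample was used, so there is no replicate error behind any number below, no test was made, and the differences are descriptions of the combined values. Changes are log2 ratios of knockout to wild type after adding 0.1 to each value, which understates the change of low genes. In bulk tissue, fewer cells of a type and less RNA per cell cannot be told apart.

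Tug1 itself, the targeted gene, lay between 11.2 and 27.7 FPKM in the wild-type tissues and between 0.00753 and 0.402 FPKM in the knockout tissues. The markers chosen for each tissue summed to 1489 FPKM or more in their own wild-type tissue, although Serpina1a was listed at 0 in liver. The values of a column summed to between 378014 (wild-type eyes) and 1124495 (wild-type liver), so a level in one tissue is not on quite the same scale as in another. Rescaling each column to the same sum corresponds to a shift of the log2 changes by 0.16 in liver, 0.10 in testes and less in the other tissues, and somewhat less for genes near the added 0.1.

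The E-box CACGTG and the D-box TTATGTAA or TTACGTAA, the element bound by DBP and TEF, were searched on both strands of RefSeq promoter windows of 300 bases, of which 250 lie before the start. Of the 10 genes 9 had a window, with 14 windows in all. Per2 had none and was not searched. The shares below are per window and not per gene. An E-box was found in windows of Per1 and Tef, and 7.15% of all 32851 windows held one. The D-box was found in Per3, at 205 and 158 bases before the start, against 1.06% of all windows. The ROR element TAGGTCA, bound by the ROR and NR1D receptors, was found in Arntl, 30 bases after the start, against 2.61% of all windows. The stretches around the elements of Per1, Per3 and Tef are printed to show the letters that the loop's activators and outputs are known to read, on build GRCm38.p6 and in the direction of transcription, with the element in capitals.
Per1, chr11:69098753-69098818, + strand: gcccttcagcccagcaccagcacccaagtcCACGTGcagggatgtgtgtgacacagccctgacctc
Per3, chr4:151044786-151044900, - strand: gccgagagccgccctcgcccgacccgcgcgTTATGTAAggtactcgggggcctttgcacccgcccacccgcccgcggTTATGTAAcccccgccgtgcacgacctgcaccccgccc
Tef, chr15:81811246-81811311, + strand: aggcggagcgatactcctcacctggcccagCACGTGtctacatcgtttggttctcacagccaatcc
A second Tef window held an E-box 127 bases before its start, in a stretch that overlaps exons of Tef and Gm17597 and is therefore not printed. None of the 3 printed stretches overlaps an annotated exon: those of Per1 and Tef lie in introns of longer transcripts of the same gene, and that of Per3 in an intron of Camta1. A match in such a window is a description and not a site of binding.

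The largest differences among the values with a mean of at least 1 FPKM were those of Per2 in heart and prostate. Per2 (chr1:91415982-91459324), a repressor of the loop, stood at 3.92 FPKM in wild-type heart and 8.67 FPKM in knockout heart, a ratio of 2.18. In heart 0.528% of the genes with a mean of at least 1 FPKM had a larger change in either direction. In prostate Per2 went from 1.03 to 1.73 FPKM, a log2 change of 0.70, or 0.43 with a pseudocount of 1, which is no longer past 1.5 times. The values were 4.47 and 5.47 FPKM in eyes and 5.8 and 7.36 FPKM in liver. Heart and prostate thus held the high values relative to wild type, and in spleen (1.78 and 1.85 FPKM), MEFs (0.852 and 0.935 FPKM) and testes (2.13 and 1.89 FPKM) the genotypes were close.

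Per1 (chr11:69095217-69109960), which answers quickly to light, hormones and stress signals as well as to the clock, was above wild type in 6 of 7 tissues. It went from 18.5 to 27.6 FPKM in heart, from 8.08 to 11.5 FPKM in prostate and from 10.7 to 15.2 FPKM in liver, log2 changes of 0.57, 0.50 and 0.50. In testes, where the wild-type level of Per1 was the highest of the 7 tissues, the values were 58.2 and 49.1 FPKM, a log2 change of -0.25. The changes were 0.34 in spleen, 0.26 in eyes and 0.14 in MEFs. Per3 (chr4:151003652-151044665), the paralog that the loop can do without, did not share the pattern. Its changes ran from -0.20 in liver to 0.23 in prostate, and its level in heart was 8.16 FPKM in wild type and 8.76 FPKM in knockout.

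**Figure D1:**
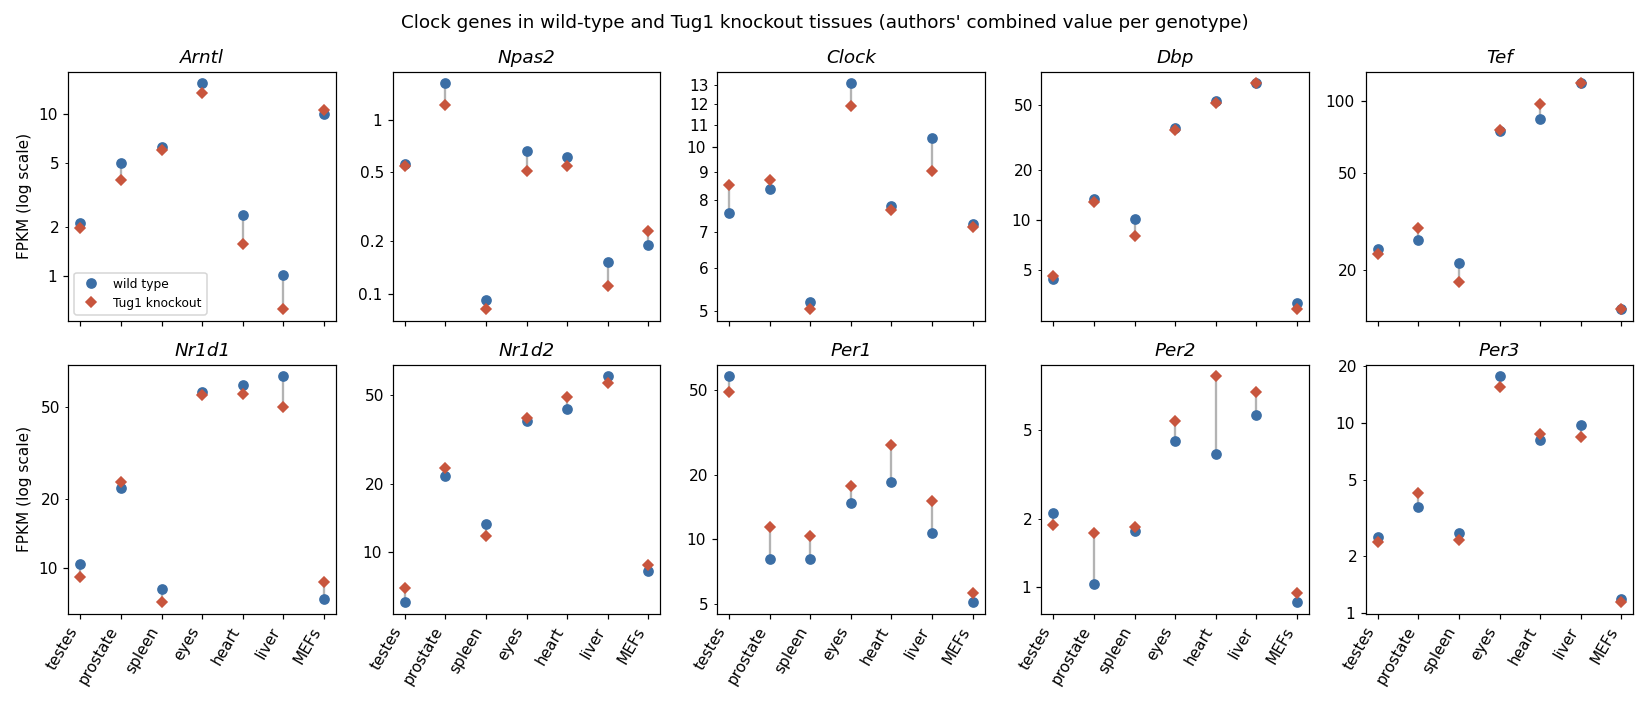
FPKM of each of the 10 clock genes (log axis, own range in each panel) in 7 tissues, as the authors' combined value for wild type (circles) and Tug1 knockout (diamonds), with no error bars because there is 1 value per genotype. Per2 in heart shows the widest gap, 3.92 against 8.67 FPKM, while Dbp and Tef in liver lie on top of each other.

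The differences of the activators lay mainly in Arntl and, at low levels, in Npas2. Arntl (chr7:113207465-113314126) was at 2.4 FPKM in wild-type and 1.57 FPKM in knockout heart, a log2 change of -0.59, or -0.41 with a pseudocount of 1, which is within 1.5 times. In liver it was at 1.01 and 0.622 FPKM, a log2 change of -0.63, but the mean of those values is under 1 FPKM. In prostate it was at 5.02 and 3.92 FPKM, in eyes at 15.6 and 13.6 FPKM, in spleen at 6.25 and 6.04 FPKM, in testes at 2.13 and 1.98 FPKM and in MEFs at 9.99 and 10.7 FPKM. Arntl was therefore below wild type in 6 of 7 tissues, by small amounts in spleen and testes. Npas2 (chr1:39193731-39363236), the relative of Clock, reached a mean of 1 FPKM only in prostate, with 1.62 and 1.21 FPKM. Clock (chr5:76209868-76304792), which is little rhythmic in most tissues, changed by less than 0.2 in all 7 tissues, with wild-type levels between 5.2 FPKM in spleen and 13.1 FPKM in eyes.

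Dbp and Tef, transcription factors that read the D-box, were close to wild type nearly everywhere. Dbp (chr7:45705088-45710203) was at 67.2 and 67.5 FPKM in liver, 52.5 and 51 FPKM in heart and 36 and 35.1 FPKM in eyes. Its largest change was -0.34 in spleen, from 10.1 to 7.98 FPKM. Tef (chr15:81802421-81826863) was at 118 FPKM in both genotypes in liver, and its changes ran from -0.27 in spleen to 0.21 in heart. Nr1d1 (chr11:98767932-98775333), the nuclear receptor REV-ERBα that represses Arntl, was at 68.3 and 50.1 FPKM in liver, a log2 change of -0.45, and stayed between -0.20 and 0.23 in the other tissues. Its paralog Nr1d2 (chr14:18204054-18239127) was at 60.4 and 56.5 FPKM in liver, and its changes ran from -0.17 in spleen to 0.21 in testes. The exons of Dbp share 539 bases with Sphk2 and those of Nr1d1 share 263 bases with Thra, both on the opposite strand. Tef shares 193 bases with the antisense gene Gm17597, and Arntl 33 bases with Gm45355. The standard kit named for these libraries does not mark strand, so reads there cannot be assigned with certainty. Thra was at 10.3 and 10.2 FPKM in liver.

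**Figure D2:**
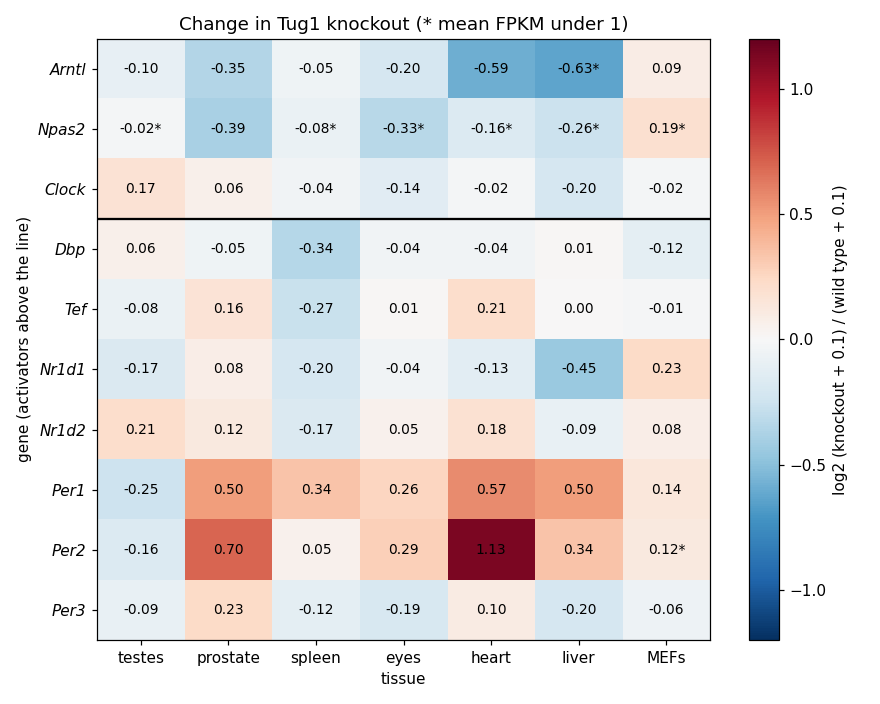
Log2 change (knockout over wild type, 0.1 added to each FPKM) of the 10 genes, rows, in 7 tissues, columns, with the activators above the line and an asterisk where the mean of both genotypes is under 1 FPKM. Per2 in heart (1.13) and prostate (0.70) and Arntl in heart (-0.59) are the changes past 1.5 times among the values without an asterisk.

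Few members were past 1.5 times, and only a small share of all genes was past it in any tissue. Counts of 0 or 1 gene per direction and tissue are too small to be ranked against that share. Of the 70 pairs of gene and tissue 62 had a mean of at least 1 FPKM, and of these 2 were more than 1.5 times higher in the knockout, 1 was more than 1.5 times lower and 59 lay within that range. In heart 1 of 9 genes was higher and 1 lower, where 0.874% of all genes were higher and 1.44% lower. In prostate 1 of 10 was higher and 0 lower, where 2.4% of all genes were higher and 0.682% lower. No member with a mean of at least 1 FPKM was past the fold elsewhere. The share of all genes past the fold was 1.17% higher and 0.753% lower for testes, 2.55% and 2.25% for liver, 4.91% and 1.1% for spleen, 0.975% and 2.2% for MEFs, and 2.64% and 0.867% for eyes. Next to the threshold, a log2 change of 0.58, lay Arntl in heart at -0.59, just past it, and Per1 in heart at 0.57, just short of it. Of the 62 changes 50 were smaller than 0.3.

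The mean change of the 7 output and repressor genes minus that of the 3 activators, the phase arm difference, is little affected when a whole column is rescaled (0.40 in place of 0.38 in liver). It was 0.54 in heart, 0.48 in prostate, 0.38 in liver and 0.27 in eyes, and -0.08, -0.04 and -0.03 in testes, spleen and MEFs. Over members with a mean of at least 1 FPKM, which leaves out Npas2 in heart and eyes, it was 0.59 and 0.21 there. In heart the activators averaged -0.26, the Per genes 0.60, and Dbp, Tef, Nr1d1 and Nr1d2 together 0.05. In prostate these means were -0.23, 0.48 and 0.08. The outputs that are not Per genes thus moved little where the Per genes stood high. In liver the activators averaged -0.36, which rests on Arntl and Npas2 at means under 1 FPKM, while the Per genes averaged 0.21 and the other outputs -0.13.

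The ratio of Arntl to Dbp, genes of opposite phase, placed the tissues far apart within a genotype. As a log2 ratio of FPKM it was -5.91 in wild-type liver and -4.39 in wild-type heart, between -1.40 and -0.68 in prostate, eyes, testes and spleen, and 1.64 in MEFs. In the knockout it was -6.55 in liver, -4.94 in heart and 1.85 in MEFs. The genotypes differed by at most 0.63 in size, in liver, and the order of liver, heart and MEFs was the same in both. The log2 ratio of Per2 to Dbp was higher in the knockout by 1.17 in heart and by 0.75 in prostate.

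**Figure D3:**
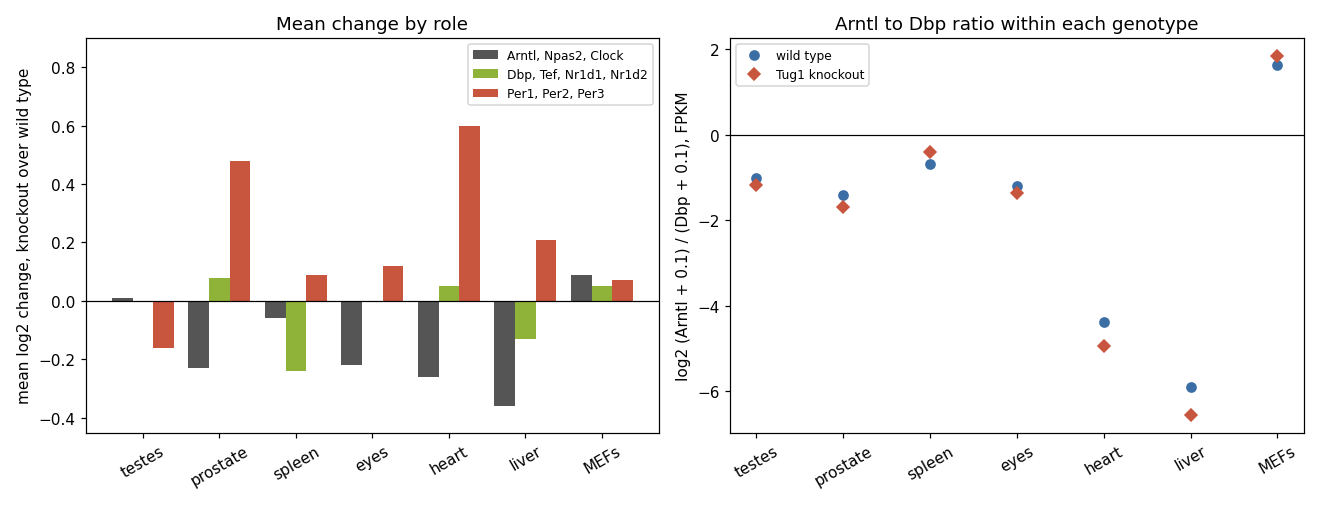
Left, mean log2 change (knockout over wild type) of the activators, of Dbp, Tef, Nr1d1 and Nr1d2, and of the Per genes in each tissue, as bars from 0. Right, log2 ratio of Arntl to Dbp within wild type (circles) and knockout (diamonds), with liver lowest (-5.91 and -6.55) and MEFs highest (1.64 and 1.85); each point rests on 1 combined value per gene.

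Other genes of the loop were mostly within 1.5 times of wild type, and liver had the most past it. Of 17 further core clock genes 15 had a mean of at least 1 FPKM in liver, where 1 was higher and 3 lower, with a median change of -0.24 against -0.02 for all genes. Of all genes in liver 2.55% were higher and 2.25% lower. The lower ones were Bhlhe41, from 4.66 to 2.19 FPKM, Bhlhe40, from 125 to 73.6 FPKM, which both repress the activators at E-boxes, and Nfil3, from 13.2 to 8.28 FPKM, which opposes DBP at the D-box. Gm129 (Ciart), a repressor of the ARNTL and CLOCK pair, was the higher one, at 11.3 and 18.8 FPKM, and it was also higher in heart, at 10.7 and 16.7 FPKM. In MEFs Arntl2, a paralog of Arntl, was at 2.04 and 4.19 FPKM. In testes, prostate, spleen and eyes 0 of these genes were past the fold.

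Among 16 clock outputs 4 were higher and 2 lower in liver, where 2.55% of all genes were higher and 2.25% lower. In the other 6 tissues 0 were past the fold. Lpin1, a phosphatidate phosphatase of triglyceride synthesis, was at 36.2 FPKM in wild-type and 167 FPKM in knockout liver, a ratio of 4.6. Alas1, the first enzyme of haem synthesis, was at 139 and 522 FPKM, and Ccrn4l (Nocturnin) at 21.5 and 50.5 FPKM. Bhlhe41 is on this list too. In the same tissue Dbp and Tef, direct outputs of the clock, were at the same level in both genotypes. Nr1d1 changed there by -0.45 and Per1 by 0.50. The part of the clock in these liver values was not tested.

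Of the 7 tissues, heart and liver had the most genes past the fold within the glucocorticoid induced genes, a list of 10 that includes Per1. In heart 5 of 10 were higher, 0 lower, with a median change of 0.60, and in liver 5 of 10 were higher, 0 lower, with a median of 0.72. Of all genes 0.874% were higher in heart and 2.55% in liver. Fkbp5, a cochaperone of the glucocorticoid receptor, went from 5.77 to 15.9 FPKM in heart and from 12.3 to 26.2 FPKM in liver. Zbtb16, a transcription factor, went from 5.08 to 14.8 FPKM in heart and from 1.61 to 5.71 FPKM in liver. Dusp1, a phosphatase that acts on MAP kinases, chosen after its values were seen, went the other way within the fold, at 61.3 and 50.3 FPKM in heart and 42.7 and 28.6 FPKM in liver. For prostate, eyes and spleen the count of higher genes was 3 each, for testes 1 and for MEFs 0, with 0 lower in any of them. The shares of all genes that were higher were 2.4%, 2.64%, 4.91%, 1.17% and 0.975% in that order.

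Temperature linked genes, mostly heat shock chaperones, were higher for 5 of 10 in prostate, 5 of 9 in spleen, 5 of 9 in liver and 3 of 10 in heart, and for 0 in testes, eyes and MEFs. Of all genes 2.4% were higher in prostate, 4.91% in spleen, 2.55% in liver and 0.874% in heart. Hsph1, a chaperone of the HSP110 family, went from 19.1 to 55.4 FPKM in spleen, from 17 to 40 FPKM in liver, from 15.3 to 31.9 FPKM in prostate and from 13.9 to 28.8 FPKM in heart. Cirbp, a cold-inducible RNA-binding protein, was chosen after its values were seen. It was at 27.5 and 18.6 FPKM in liver, 70.2 and 48.8 FPKM in spleen, 94.3 and 66.5 FPKM in prostate and 54.4 and 49.9 FPKM in heart. Rbm3, the other cold-inducible gene of the list, was at 68.9 and 72.6 FPKM in liver and 387 and 336 FPKM in spleen. In prostate Rbm3 was at 245 and 207 FPKM, and in heart at 98.3 and 89.9 FPKM. The part of hormone, temperature or handling in the Per values was not tested.

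**Figure D4:**
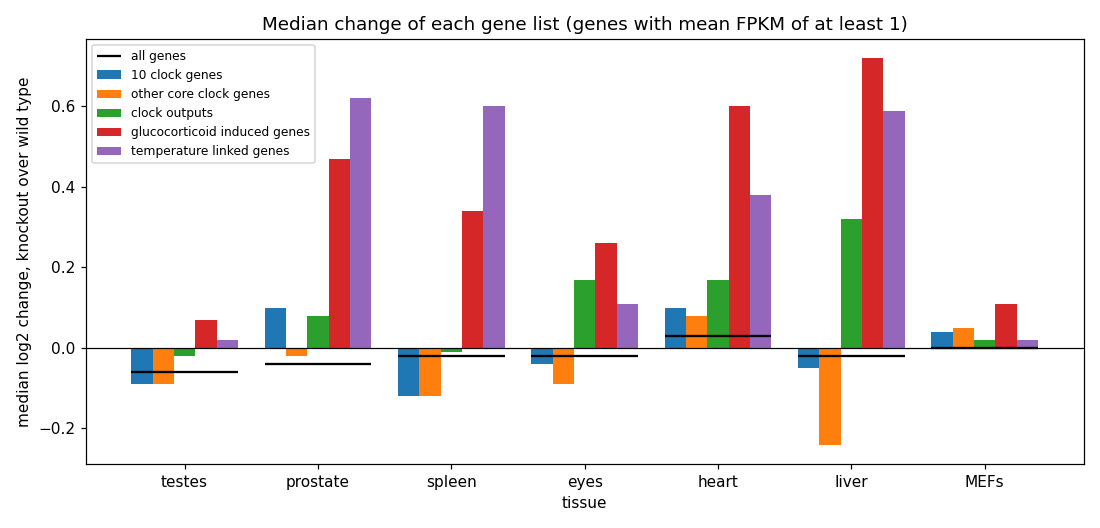
Median log2 change (knockout over wild type) of each gene list in each tissue, over its genes with a mean of at least 1 FPKM, as bars from 0, with a black line for the median of all such genes. The glucocorticoid list reached 0.72 in liver and 0.60 in heart, and the temperature list 0.62 in prostate and 0.60 in spleen. Medians of the 10 clock genes lay between -0.12 and 0.10, but cover genes with opposite changes, such as Arntl (-0.59) and Per2 (1.13) in heart.

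Markers of other cells moved with genotype in prostate and heart, and also in liver, eyes and spleen. In liver, eyes and spleen no clock gene with a mean of at least 1 FPKM was past the fold. In prostate 4 of 4 adipocyte markers were higher and their sum went from 44.3 to 145 FPKM, and 4 of 4 globins were higher, with sums of 80.3 and 138 FPKM. There 2 of 4 macrophage markers were also higher, with sums of 12.5 and 17.2 FPKM. In heart 4 of 4 B cell markers were lower, with sums of 30.6 and 13.7 FPKM. There 3 of 4 adipocyte markers were also lower, Adipoq at 21 and 9.23 FPKM, Plin1 at 9.81 and 4.23 FPKM and Cidec at 18 and 9.66 FPKM. The adipocyte sums in heart, 1441 and 1334 FPKM, were mostly Fabp4, at 1392 and 1311 FPKM. Of 4 skeletal muscle markers in heart 2 were lower, Mylpf at 18.2 and 1.43 FPKM and Myh4 at 2.03 and 0.00442 FPKM. The globins there were split, with 2 higher (Hbb-bt at 827 and 3062 FPKM) and 2 lower (Hba-a1 at 1351 and 638 FPKM), and 1 of 4 macrophage markers was higher, with sums of 45.6 and 55.7 FPKM. In liver 1 of 4 macrophage markers was higher, with sums of 42.3 and 60.7 FPKM, and the 4 globins summed to 607 and 598 FPKM. In eyes 4 of 4 adipocyte markers (92.5 and 300 FPKM), 4 of 4 skeletal muscle markers (1110 and 2040 FPKM) and 4 of 4 globins (179 and 524 FPKM) were higher. In spleen 4 of 4 globins were higher, with sums of 7526 and 13977 FPKM. There 1 of 4 macrophage markers was also higher and 1 of 4 adipocyte markers was lower. Of all genes with a mean of at least 1 FPKM, 2.4% were higher in prostate, 2.55% in liver, 2.64% in eyes and 4.91% in spleen. In heart 0.874% were higher and 1.44% lower, and in spleen 1.1% were lower. The marker counts were taken without that filter on the mean. None of these marker lists was at 0 throughout in these tissues, and their part in the clock values was not tested.

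Over the 7 tissues the genes whose log2 change ran most like the phase arm difference, among 8874 genes with a mean of at least 1 FPKM in every tissue, were Yipf1, Fam120b, Ttc23, Jmjd4 and Tm9sf2, with Pearson's r between 0.93 and 0.96. At the other end were 2700049A03Rik, Gm5641, Myef2, Tab3 and Wrap53, with r between -0.96 and -0.93. These are correlations over 7 points that share their libraries with the clock genes, and the 5 genes at the high end changed by no more than 0.30 in size in any tissue.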

How the data were processed

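RNA was sequenced from 42 samples of 7 tissues. Per the submitters' processing notes the tools were CASAVA 1.8.2, TopHat2 and Cuffdiff on build mm10; the study's methods describe another route for its own analysis. The deposited table holds 1 FPKM value per gene, genotype and tissue, combined by the authors over the samples of a group. Its header does not name the unit, which was read from the Cuffdiff layout and the values. Counts and depth per sample were not analysed here. The authors' own fold changes, test statistics, p-values, q-values and significance calls are in the same table and were not used. Values of 1 further tissue (2 value columns) had no sample in the labels used and were left out.

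Changes were computed as log2 of knockout over wild type after adding 0.1 to both (Python, pandas, numpy). Counts past 1.5 times, other than those of the cell markers, were taken over genes whose mean of both genotypes was at least 1 FPKM. The code was tested on simulated data. With 1 value per group no test, error or interval could be computed. All 10 members were named in every tissue; from each other list at most the 4 genes with the largest change past 1.5 times per tissue were named, and the 5 genes at each end of the correlation. The members, lists and thresholds were chosen with earlier results of these data known. Older symbols were matched through RefSeq synonyms, gene positions are from GENCODE on GRCm38, and promoter windows from RefSeq on GRCm38.p6.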

Additional observations from a re-analysis of the deposited data

How the results depend on the processing

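No alternative reversed a value past the fold or a phase arm difference larger than 0.1. With a pseudocount of 1 the count of members past 1.5 times was 0 in prostate, where Per2 is lost, and 1 in heart, where Arntl is lost, and the arm difference was 0.36 in prostate, 0.43 in heart and 0.19 in liver. Past 2 times the count was 0 in prostate and 1 in heart, where Per2 remained. In liver the count was 1 after rescaling each column to one sum, where Per1 reached 0.66, and 1 with no filter on low values, which admits Arntl. The arm difference was 0.34 in heart and 0.26 in liver with medians over the arms, and 0.21 in liver over members with a mean of at least 1 FPKM. A pseudocount of 0.01, centring on the median and leaving out Nr1d1 moved no count by over 1.5 times and no arm difference by over 0.1. Rescaling changed the sign of 10 of 70 member changes, each 0.09 or smaller in size. No paired analysis was possible because the table holds 1 combined value per genotype and tissue, and leaving out each replicate was not run for the same reason. Depth behind the values is unknown.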

Other observations

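Spink3, fixed as a prostate marker, was at 0.0653 FPKM in wild-type and 28.5 FPKM in knockout spleen, above its 4.03 and 2.77 FPKM in prostate, and it was singled out after its values were seen. Msmb, another marker of prostate, was at 0.0148 and 0.0182 FPKM in spleen, and no clock gene was past 1.5 times in that tissue. The 4 liver markers summed to 1.86 FPKM in wild-type and 0.232 FPKM in knockout spleen.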
